A study of Mus musculus with 24 samples.

Results

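Retinal progenitors make the cell types of the retina in a fixed order, with ganglion cells, horizontal cells and cones first and rods, bipolar cells and Müller glia last, and a set of temporal competence factors changes in these progenitors as they age. The 10 genes described here were chosen by symbol from that set, out of 46603 annotated genes in the counts, and each matched 1 Ensembl gene identifier. Lin28b, Hmga2, Igf2bp1 and Igf2bp3 are known as factors of young progenitors. Ikzf1 (Ikaros) and Casz1 are zinc finger factors linked to early and to later progenitors, respectively. Nfia, Nfib, Nfic and Nfix form the nuclear factor I (NFI) family, transcription factors linked to late progenitors, bipolar cells and Müller glia, and in the brain to glia and to neurons of the cerebral cortex.

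The samples were 24 mouse retinal organoids (MROs), each sequenced as its own library, taken after 20, 22, 25 or 30 days in culture (D20, D22, D25 and D30), 6 organoids per day. All came from 1 mouse embryonic stem cell line (E14Tg2a, wildtype), carried the genotype label Control and received water as the only solvent. The paper's protocol also added the retinoid analog EC23 to the medium for some days before D20. All organoids belonged to a single experiment, so p-values measure only the spread between organoids of this experiment and line. Total RNA was depleted of ribosomal RNA, and the libraries held from 13634846 to 19477108 counted reads. Values are given as normalized CPM, the counts scaled to a common library size, and 3 counts in an organoid corresponded to between 0.154 and 0.22 CPM. The defining genes of retina were present, since the rod markers summed to between 4820 and 10500 CPM at D30. The progenitor markers summed to between 902 and 1480 CPM at D20. Most of their counts came from the proliferation genes Top2a and Mki67 (104597 and 91262 over the 24 organoids), which are not particular to retina. Genes listed as markers of cerebral cortex neurons were also counted and differed between organoids of the same timepoint, from 0.858 to 254 CPM when summed over 4 genes. Most of these counts came from Neurod6, which the paper describes in amacrine cells. Markers of microglia and blood cells summed to at most 1.24 CPM in any organoid, and Cd3e and Hbb-bs were at 0.

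Between D20 and D30, 7 of the 9 genes that could be tested passed an adjusted p of 0.01 (edgeR's quasi-likelihood test over 46949 features), against 26.8% of all tested features. The 4 early factors were lower at D30, a direction taken by 13% of all features, and Casz1, Nfic and Nfix were higher, a direction taken by 13.9%. Shares of all features include assembled loci, whereas all members are annotated genes, which passed more often. Of the 16253 annotated genes tested, 6790 passed, 2712 of them lower and 4078 higher at D30. Nfia and Nfib missed the threshold, with adjusted p values of 0.015 and 0.0249. In 5 of the 9 genes the organoids of D20 and D30 did not overlap, which held for 18.9% of all features. Ikzf1 was listed at 0 counts in each of the 24 organoids and was not tested.

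Igf2bp1 (ENSMUSG00000013415, chromosome 11 from 95957163 to 96005940 of GRCm38, minus strand) encodes an RNA-binding protein that stabilizes messenger RNAs in embryonic tissue. The D20 organoids held 72.2 to 107 normalized CPM (median 76.7), those of D22 44.1 to 64.9 (median 55.9), those of D25 21.8 to 32.0 (median 27.0) and those of D30 4.54 to 12.1 (median 7.62). No organoid of a timepoint reached the lowest organoid of the timepoint before it. From D20 to D30 the log2 fold change was -3.33 (standard error 0.19, adjusted p = 9.83e-15), a 10.1-fold lower level at D30. The fall was 1.02 log2 units from D22 to D25 (adjusted p = 0.00018) and 1.75 from D25 to D30 (adjusted p = 6.84e-08), and the change of -0.57 from D20 to D22 had an adjusted p of 0.0439.

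Igf2bp3 (ENSMUSG00000029814, chromosome 6 from 49085223 to 49214957, minus strand) is a close relative of Igf2bp1 and is also typical of fetal tissue. Its organoids lay between 27.1 and 40.1 normalized CPM at D20 (median 33.9), 22.2 and 30.3 at D22 (median 26.0), 13.9 and 19.2 at D25 (median 17.2) and 5.32 and 10.2 at D30 (median 6.07). D20 and D22 overlapped, whereas D25 lay below D22 and D30 below D25 in every organoid. The log2 fold change from D20 to D30 was -2.33 (standard error 0.15, adjusted p = 1.37e-13). It fell by 0.61 from D22 to D25 (adjusted p = 0.00405) and by 1.35 from D25 to D30 (adjusted p = 1.62e-07). The earlier of these falls lost its call with cortex markers in the fit (-0.65, adjusted p = 0.0179), without D22 replicate 5 or 6 or D25 replicate 1, 4 or 6, with values of between -0.65 and -0.56 over all omissions, and when low counts were not filtered (-0.58, adjusted p = 0.0141). The gene Malsu1 on the opposite strand shares 1529 exonic bases with it, 18.74% of its exons, and the strand setting of the counting was not given in the sources used here.

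Lin28b (ENSMUSG00000063804, chromosome 10 from 45376620 to 45486395, minus strand) encodes an RNA-binding protein that blocks maturation of let-7 microRNAs. Its level was 7.04 to 14.8 normalized CPM in D20 organoids (median 9.72), 2.50 to 9.38 in those of D22 (median 5.62), 1.66 to 4.95 in those of D25 (median 3.14) and 0.326 to 5.27 in those of D30 (median 2.31). Neighbouring timepoints overlapped, and every D25 and D30 organoid lay below every D20 organoid. Its log2 fold change was -1.66 from D20 to D25 (standard error 0.39, adjusted p = 0.00172) and -2.07 from D20 to D30 (standard error 0.39, adjusted p = 8.89e-05), a 4.21-fold lower level. None of the 3 consecutive steps passed 0.01, with changes of -0.96, -0.70 and -0.42 and adjusted p values of 0.152, 0.275 and 0.667. Without the 10 organoids richest in cortex markers the change from D20 to D30 was -1.23 (adjusted p = 0.0615), with 4 D20 and 2 D30 organoids left.

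Hmga2 (ENSMUSG00000056758, chromosome 10 from 120361275 to 120476469, minus strand), a chromatin protein of stem and progenitor cells, was the least abundant of the tested members. It had between 13 and 42 counts per organoid at D20 and between 5 and 20 at D30, with medians of 1.79, 0.845, 1.13 and 0.538 normalized CPM at the 4 timepoints. Organoids of D20 and D30 overlapped, from 0.858 to 2.89 and from 0.286 to 1.11. The log2 fold change from D20 to D30 was -1.49 (standard error 0.41, adjusted p = 0.00464), and no other pair of timepoints passed 0.01. This call was lost when low counts were not filtered (adjusted p = 0.0131), when only D20 and D30 were fitted (0.0122), when any of 5 single organoids was left out (D20 replicate 3 or D30 replicate 1, 2, 4 or 5, with changes of between -1.70 and -1.32 over all omissions), and without the 10 organoids rich in cortex markers (-0.45, adjusted p = 0.741).

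**Figure D1:**
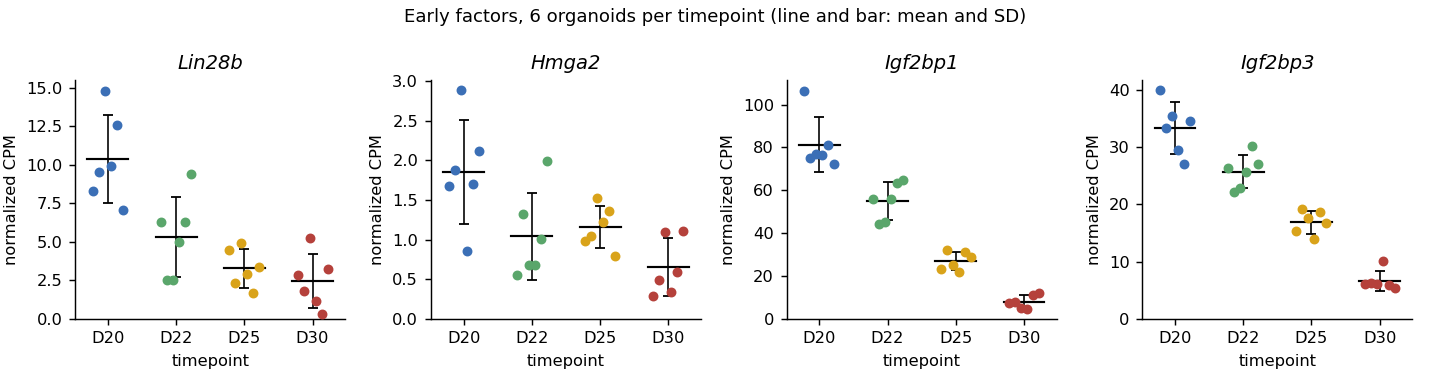
Normalized CPM of Igf2bp1, Igf2bp3, Lin28b and Hmga2 (vertical axes) in each organoid by timepoint (horizontal axes), showing points for the 6 organoids, a line for the mean and a bar for the SD. Igf2bp1 and Igf2bp3 step down with little spread, from medians of 76.7 and 33.9 at D20 to 7.62 and 6.07 at D30, whereas the organoids of Lin28b and Hmga2 overlap between neighbouring timepoints.

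Compared per length of exon, the early factors stood at different levels. In RPKM, which divides CPM by the exon length in kilobases, D20 organoids had 8.40 ± 1.31 of Igf2bp1 (SD, n = 6), 4.09 ± 0.563 of Igf2bp3, 1.14 ± 0.315 of Lin28b and 0.274 ± 0.0976 of Hmga2. At D30 Igf2bp1 and Igf2bp3 had come to 0.832 ± 0.317 and 0.812 ± 0.217 RPKM, within each other's spread, above Lin28b at 0.269 ± 0.193 and Hmga2 at 0.0964 ± 0.0540. In a bulk library, fewer cells that express a gene and less of its RNA per cell cannot be told apart. The markers of progenitors moved with the early factors. The list was shortened after its results had been seen. All 7 genes left in it fell from D20 to D30, as did 2712 of the 16253 annotated genes tested. The median log2 fold change of the 7 was -2.53, against -2.20 for the 4 early factors and 0.0987 for all annotated genes tested. The summed level of the 7 went from 902 to 1480 CPM at D20 to 294 to 476 CPM at D30. The log2 fold changes within that list ran from -0.45 for the replication gene Pcna and -1.75 for the proliferation marker Mki67 to -2.53 for the cell cycle gene Ccnd1 and -5.32 for the growth factor gene Fgf15. The part of the progenitor content in the falls of the early factors was not tested.

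The 4 early factors share a feature of their messenger RNAs. The let-7 microRNAs accumulate as tissues mature and repress messenger RNAs that pair with their seed, which is bases 2 to 8 from the 5′ end, and Lin28 proteins in turn block let-7 processing. In mature mouse sequences from RefSeq (GRCm38.p6), 9 family members carry the same seed, and let-7a, let-7c and miR-98 are shown with the seed in capitals, since the sites below match it.
mmu-let-7a-5p: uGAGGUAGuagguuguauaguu
mmu-let-7c-5p: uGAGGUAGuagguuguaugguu
mmu-miR-98-5p: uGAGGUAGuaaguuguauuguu
The complement of the seed, CTACCTC, was searched on the sense strand of the longest annotated 3′ untranslated region of each protein-coding gene (GENCODE M21), and 9.02% of 21027 such regions held it. It occurred 4 times each in Lin28b, Hmga2 and Igf2bp1 and 1 time in Igf2bp3. Among regions within 20% of the same length, 24.2%, 15.5%, 33.6% and 13.3% held at least 1 match, and 0.236%, 0.134% and 0.355% held as many as the first 3 of these genes. Of the other members, Nfia had 1 match in a region of 7639 bases, where 41.7% of regions of that length have 1, and Casz1, Ikzf1, Nfib, Nfic and Nfix had none. Only matches followed by A are shown, with the seed match in capitals. Lin28b, Hmga2 and Igf2bp1 also had matches followed by other bases, as did Nfia.
Lin28b, chr10:45381022-45381044, minus strand: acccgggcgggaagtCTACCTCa
Hmga2, chr10:120364224-120364246, minus strand: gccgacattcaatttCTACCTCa
Igf2bp1, chr11:95961778-95961800, minus strand: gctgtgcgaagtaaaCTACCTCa
Igf2bp1, chr11:95959357-95959379, minus strand: cagcagtgctattaaCTACCTCa
Igf2bp1, chr11:95958763-95958785, minus strand: gtataaatggatgaaCTACCTCa
Igf2bp3, chr6:49086787-49086809, minus strand: tgcatttttactcaaCTACCTCa
These matches describe the sequence only. Mature microRNAs were not measured, since the libraries were selected for longer fragments.

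Relatives of the early factors and genes of let-7 processing moved in different ways. Of 11 such genes, 5 fell and 1 rose from D20 to D30, against 2712 and 4078 of 16253 annotated genes tested. The median log2 fold change of the 11 was -0.14. Hmga1, the paralog of Hmga2, fell from 38.0 ± 4.89 to 8.22 ± 1.64 normalized CPM (-2.21, adjusted p = 8.04e-13), and Igf2bp2 from 64.7 ± 9.0 to 20.9 ± 4.51 (-1.63, adjusted p = 5.32e-10). Trim71, an RNA-binding let-7 target of embryonic cells, fell by 2.35 (adjusted p = 1.31e-08). Tut4, which tags let-7 precursors for decay together with Lin28, fell by 0.93 (adjusted p = 1.13e-10), and Ago2, which carries mature microRNAs, fell by 0.45 (adjusted p = 0.00141). The processing genes Dicer1, Drosha, Dgcr8, Tut7 and Dis3l2 had changes of between -0.14 and 0.14, with adjusted p values of at least 0.23.

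Lin28a, the paralog of Lin28b, went the other way. It was measured at 0.403 to 1.14 normalized CPM at D20 (median 0.813), 0.184 to 1.78 at D22 (median 1.27), 1.53 to 3.54 at D25 (median 2.49) and 4.77 to 16.7 at D30 (median 6.48). Every D30 organoid lay above every organoid of the earlier days. The log2 fold change from D20 to D30 was 3.28 (standard error 0.40, adjusted p = 8.83e-08), from counts of 6 to 16 per organoid at D20 to 78 to 288 at D30. Per length, Lin28a stood at 0.204 ± 0.0651 RPKM at D20, below Lin28b at 1.14 ± 0.315, and at 1.99 ± 1.10 at D30, above Lin28b at 0.269 ± 0.193, and the mean ± SD ranges of both genes were apart at either day. The longest 3′ untranslated region of Lin28a held 2 matches to the let-7 seed. Its exons share 234 bases, 5.856%, with a transcript on the opposite strand. Its rise was as large with cortex markers in the fit (log2 fold change 3.26) and without the organoids rich in them (3.94, adjusted p = 3.27e-05).

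Among 12 further transcripts known as let-7 targets, 3 fell and 3 rose from D20 to D30 (median log2 fold change -0.39). Among all 16253 annotated genes tested, 2712 fell and 4078 rose past 0.01. The targets that fell were Arid3a (-1.08), the cell cycle phosphatase Cdc25a (-1.20) and Hic2 (-0.77). The targets that rose were Prtg (1.13), Ccnd2 (2.27) and Thbs1 (2.13). In the search for the seed match described above, Hic2, Arid3a and Cdc25a held 4, 2 and 1 matches and Prtg 2. Ccnd2 and Thbs1 held none in the region searched. Ccnd2 followed the cortex markers (slope 0.46 per doubling, adjusted p = 1.58e-06). Without the 10 organoids rich in them Ccnd2 and Thbs1 missed the threshold (1.72 and 2.30, adjusted p = 0.0233 and 0.0441), and Prtg passed it (1.56). The transcript Mir99ahg, which spans the let-7c precursor Mirlet7c-1 on chromosome 16, changed by 0.69 and missed the threshold (adjusted p = 0.0547). It was 0.28 with cortex markers in the fit, whose slope was 0.21 (adjusted p = 0.0102), and -0.16 without the organoids rich in them.

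Casz1 (ENSMUSG00000028977, chromosome 4 from 148804429 to 148954889, plus strand) encodes a zinc finger factor of mid and late progenitors that is known to promote rods. It lay between 45.0 and 62.4 normalized CPM at D20 (median 60.4), 72.7 and 156 at D22 (median 102), 151 and 206 at D25 (median 168) and 113 and 220 at D30 (median 164). All D22 organoids were above all D20 organoids, and the later timepoints overlapped with their neighbours. The first step, D20 to D22, brought a rise of 0.87 in log2 units (standard error 0.15, adjusted p = 0.000746) and the second, D22 to D25, a rise of 0.69 (standard error 0.15, adjusted p = 0.00314). After D25 the change was -0.08 (adjusted p = 0.871). It was the only 1 of the 9 tested members that passed 0.01 from D20 to D22, a step in which 1.9% of all features did. Of the 16253 annotated genes tested, 540 passed in that step. With the assembled loci left out of scaling and testing the second rise was 0.60 (adjusted p = 0.011), and it also lost its call without D22 replicate 1 or 6, with values of between 0.60 and 0.83 over all omissions.

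The course of Casz1 bent at D25. The change from D20 to D25 and that from D25 to D30, both over 5 days, differed by -1.63 log2 units (standard error 0.26, adjusted p = 0.000176). Nfic showed a difference of -1.69 (standard error 0.29, adjusted p = 0.00043). No other member passed 0.01 in this test of the pace, which 2.02% of all features and 630 of 16253 annotated genes passed. Without the 10 organoids rich in cortex markers neither Casz1 nor Nfic passed it (-1.42 and -1.80, adjusted p = 0.181 and 0.151).

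The rod markers moved with Casz1. All 6 rod markers rose from D20 to D30, as did 4078 of the 16253 annotated genes tested. The sum of the rod markers was 446 to 1330 CPM at D20, 1470 to 3910 at D22, 5060 to 6450 at D25 and 4820 to 10500 at D30. Casz1 is known to act on chromatin with NuRD and Polycomb complexes. Of 13 of their subunits, 6 fell and none rose from D20 to D30, against 2712 and 4078 of 16253 annotated genes tested. The median log2 fold change of the subunits was -0.44. The largest changes were those of Cbx2 (-1.84, adjusted p = 4.2e-09) and of the histone methyltransferase Ezh2 (-1.39, adjusted p = 7.3e-15), and Rbbp4, Rnf2, Eed and Cbx8 had values of between -0.17 and 0.02 with adjusted p values of at least 0.0656.

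Ikzf1 (ENSMUSG00000018654, chromosome 11 from 11685003 to 11772926) had 0 counts in all 24 organoids, which allows up to 3 counts, or 0.22 CPM, in an organoid. This was shared by 36.208% of annotated genes. A listed 0 need not mean that no RNA was present, since the 13 protein genes of the mitochondrial genome, which every cell uses, were also listed at 0, and reads could be counted on assembled loci whose positions the counts do not give. Other genes of the Ikaros family were counted. Ikzf2 had medians of 57.1 normalized CPM at D20 and 63.5 at D30. Ikzf5 had 28.0 ± 3.84 and 32.7 ± 4.38 (SD, n = 6) at these timepoints and Ikzf4 8.41 ± 1.82 and 5.69 ± 1.04, and none of them passed 0.01 (adjusted p = 0.136, 0.107 and 0.0255). Ikzf3 had at most 16 counts in an organoid and was not tested.

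Nfic (ENSMUSG00000055053, chromosome 10 from 81396186 to 81455635, minus strand) followed a course like that of Casz1. Its organoids lay between 9.72 and 17.1 normalized CPM at D20 (median 13.8), 14.6 and 31.3 at D22 (median 21.5), 26.2 and 43.7 at D25 (median 32.2) and 19.7 and 33.2 at D30 (median 24.9). Every D25 and D30 organoid was above every D20 organoid. The log2 fold change was 1.29 from D20 to D25 (standard error 0.17, adjusted p = 1.47e-06) and 0.89 from D20 to D30 (standard error 0.17, adjusted p = 0.000125), and the last step of -0.40, D25 to D30, missed the threshold (adjusted p = 0.19). The step of 0.66 from D22 to D25 had an adjusted p of 0.0105, just above the threshold.

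Nfix (ENSMUSG00000001911, chromosome 8 from 84699876 to 84800344, minus strand) changed most within the family. It was measured at 3.36 to 31.6 normalized CPM at D20 (median 7.74), 6.56 to 9.71 at D22 (median 7.45), 12.6 to 45.8 at D25 (median 31.4) and 14.8 to 89.2 at D30 (median 56.5). Every D25 and D30 organoid was above every D22 organoid, whereas D20 overlapped with D30 through a single D20 organoid, replicate 6, at 31.6. The rise was 1.88 in log2 units between D22 and D25 (standard error 0.44, adjusted p = 0.00482), 2.74 between D22 and D30 (standard error 0.45, adjusted p = 1.93e-05) and 2.26 between D20 and D30 (standard error 0.44, adjusted p = 0.000128). Without D20 replicate 6 the last of these was 2.94, and without the organoids rich in cortex markers the rise from D22 to D30 was 1.08 and missed the threshold (adjusted p = 0.0196). The rise from D22 to D25 was lost with cortex markers in the fit (0.27, adjusted p = 0.551), without the organoids rich in them (0.89, adjusted p = 0.18), and when D22 replicate 1, 4 or 6 or D25 replicate 1, 4 or 6 was left out, with values of between 1.71 and 2.04 over all omissions.

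Nfib (ENSMUSG00000008575, chromosome 4 from 82290173 to 82705750, minus strand) was the most abundant family member per length at every timepoint. It lay between 105 and 239 normalized CPM at D20 (median 135), 130 and 167 at D22 (median 141), 112 and 388 at D25 (median 211) and 71.1 and 494 at D30 (median 220). The D30 organoids covered the whole range of the D20 organoids and reached beyond it on both sides. The log2 fold change from D20 to D30 was 0.82 (standard error 0.29, adjusted p = 0.0249). Without D30 replicate 6 or without D20 replicate 6 it passed 0.01, and over all omissions it was between 0.54 and 1.01. It also passed when low counts were not filtered (0.843, adjusted p = 0.00732).

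Nfia (ENSMUSG00000028565, chromosome 4 from 97772734 to 98118874, plus strand) had medians of 34.6, 32.5, 34.7 and 56.4 normalized CPM, with organoids from 31.1 to 40.8 at D20, 21.2 to 39.2 at D22, 18.1 to 55.7 at D25 and 24.6 to 101 at D30. It rose from D22 to D30 by 0.90 (standard error 0.23, adjusted p = 0.00317), and from D20 to D30 the change of 0.71 had an adjusted p of 0.015. The rise from D22 lost its call without D30 replicate 1, when only annotated genes were used, with cortex markers in the fit, and without the organoids rich in them (0.08, adjusted p = 0.902). The change from D20 passed 0.01 in the DESeq2 test (0.785, adjusted p = 0.00347) and in edgeR with the size factors of DESeq2 (0.78, adjusted p = 0.00909). In edgeR it also passed when low counts were not filtered (0.737, adjusted p = 0.00706). Without D25 replicate 1, D25 replicate 2, D30 replicate 3 or D30 replicate 6 it passed as well, with values of between 0.49 and 0.87 over all omissions. The SD of Nfia was 3.29, 6.32, 12.5 and 26.8 normalized CPM at the 4 timepoints. That of Nfib was 46.9 at D20, where replicate 6 stood apart, then 13.1, 97.2 and 152.

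**Figure D2:**
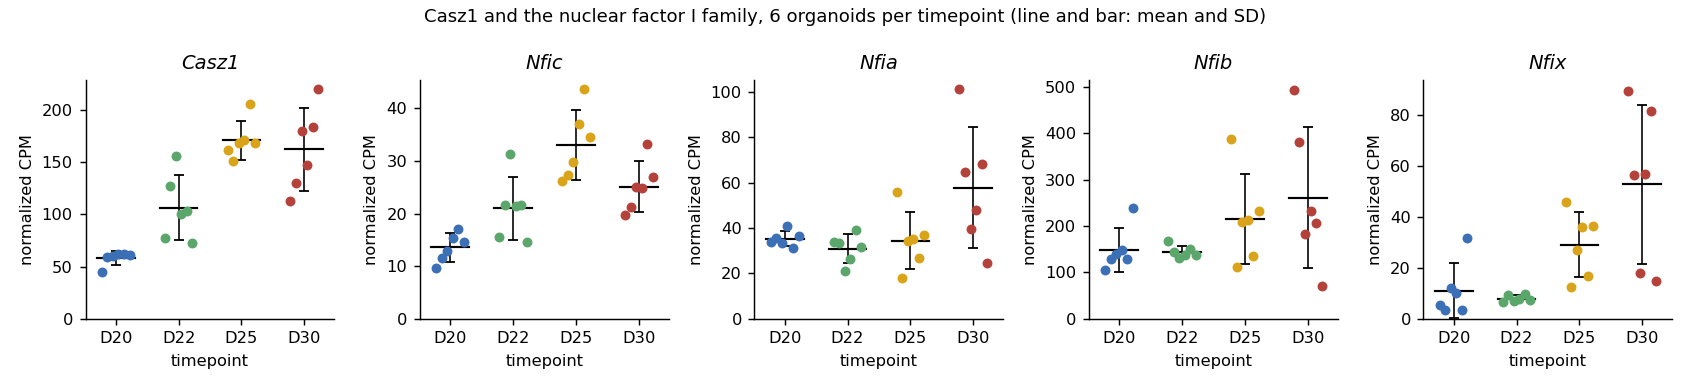
Normalized CPM of Casz1, Nfic, Nfia, Nfib and Nfix (vertical axes) in each organoid by timepoint (horizontal axes), with points for the 6 organoids, a line for the mean and a bar for the SD. Casz1 and Nfic have their highest means at D25 (171 and 33.1), whereas Nfia, Nfib and Nfix spread out at D25 and D30, to between 71.1 and 494 for Nfib at D30.

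In the steps between consecutive timepoints, 4 of the 9 tested members passed 0.01 from D22 to D25, Igf2bp1 and Igf2bp3 downward and Casz1 and Nfix upward, against 5.28% of all features. Without the 10 organoids rich in cortex markers none of the 9 passed in this step, Igf2bp1 with -0.81, Igf2bp3 with -0.46, Casz1 with 0.74 and Nfix with 0.89, and leaving out single organoids gave between 1 and 5 members, the lowest without D22 replicate 6. From D25 to D30 it was 2, Igf2bp1 and Igf2bp3, both downward, against 3.51%. Over longer intervals 5 members passed from D20 to D25, against 15.1% of features, and 5 from D22 to D30, against 21.5%. In the joint test of the 4 timepoints 7 passed, against 27.2%, and Hmga2 and Nfib did not (adjusted p = 0.0288 and 0.0345). These comparisons share organoids, so they are not independent of each other.

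**Figure D3:**
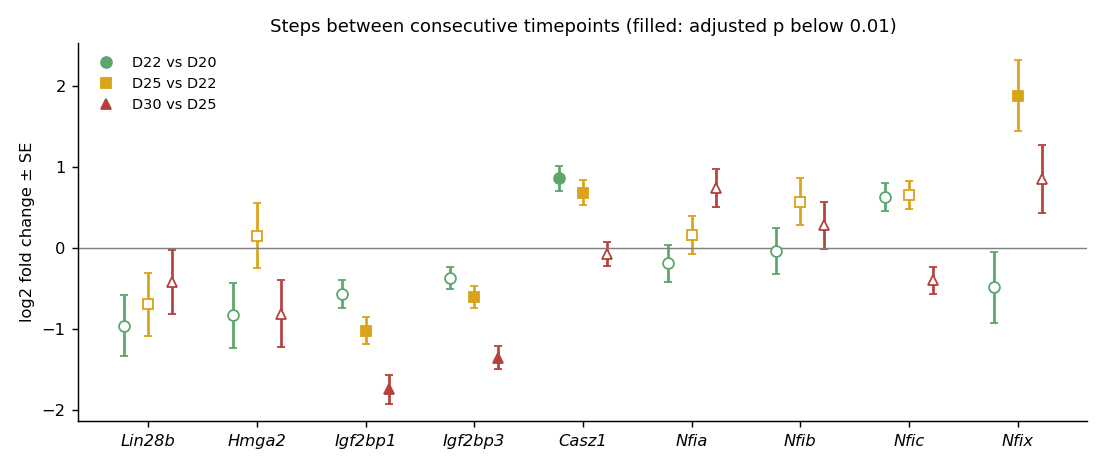
Log2 fold change with its standard error (vertical axis) for each tested member (horizontal axis) over the 3 consecutive steps, where filled symbols passed an adjusted p of 0.01. The steps last 2, 3 and 5 days, Igf2bp1 and Igf2bp3 fall by 1.75 and 1.35 in the last and longest one, Casz1 rises in the first 2 steps only (0.87 and 0.69), and Nfix rises by 1.88 in the middle step.

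Within the NFI family the balance moved toward Nfix. Summed per length, the family was led by Nfib, with 59.2% ± 2.05 of its RPKM at D20 (SD, n = 6) and 49.5% ± 10.2 at D30. Nfix made up 7.86% ± 5.05 at D20 and 6.40% ± 0.833 at D22, and then 14.4% ± 2.68 at D25 and 20.1% ± 6.93 at D30. Nfia went from 20.3% ± 4.24 to 15.9% ± 1.5, and Nfic from 12.7% ± 2.97 at D20 over 20.9% ± 8.04 at D25 to 14.4% ± 9.21 at D30. Ratios of counts within an organoid, which do not depend on the scaling of libraries, were compared between D20 and D30 for the 6 pairs of members (two-sided exact permutation test, Benjamini-Hochberg over 6 pairs, 6 organoids per timepoint). The mean log2 ratio of Nfia to Nfix went from 2.14 ± 1.18 to 0.29 ± 0.55 (difference -1.85, exact p = 0.00866, adjusted 0.026), and that of Nfib to Nfix from 4.18 ± 0.92 to 2.37 ± 0.68 (difference -1.80, exact p = 0.00433, adjusted 0.026). The ratio of Nfic to Nfix differed by -1.54 (exact p = 0.0584, adjusted 0.117), and the 3 ratios among Nfia, Nfib and Nfic by -0.31 to -0.05 (adjusted exact p of at least 0.662). The smallest exact p this design allows is 0.00216. Leaving out an organoid took both calls away in 8 of 12 cases (D20 replicate 1, 2, 4 or 5 or D30 replicate 1, 2, 4 or 5), while the differences stayed between -2.24 and -1.60 for Nfia to Nfix and between -2.06 and -1.59 for Nfib to Nfix.

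**Figure D4:**
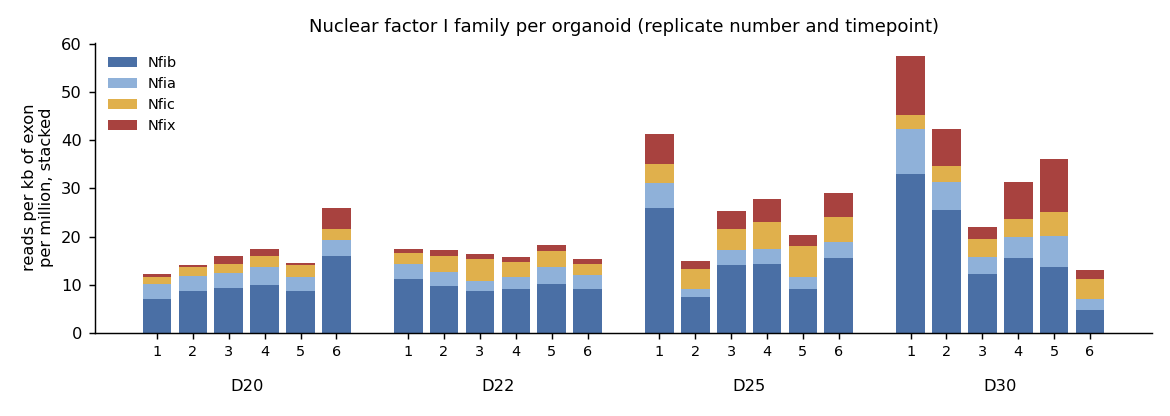
RPKM of Nfib, Nfia, Nfic and Nfix (vertical axis, stacked) in each of the 24 organoids (horizontal axis, replicate number within timepoint). The D22 bars differ little in height, the D25 and D30 bars differ more, and the share of Nfix is 6.40% on average at D22 and 20.1% at D30.

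The spread of Nfia, Nfib and Nfix between organoids went with the markers of cerebral cortex neurons (Neurod6, Neurod2, Tbr1 and Emx1). Most counts of the 4 came from Neurod6 (20694 over the 24 organoids, against 3947, 1284 and 578 for the others). The paper describes Neurod6 as a gene of postmitotic amacrine cells. The part of amacrine cells in this sum was not tested. The 4 markers summed to 3.36 to 183 CPM at D20, 0.858 to 10.3 at D22, 3.97 to 254 at D25 and 4.27 to 209 at D30, and none of the 4 genes passed 0.01 between D20 and D30. From D22 to D25, the step in which Nfix was called, Neurod6 and Neurod2 rose, by 4.50 and 3.56 (adjusted p = 0.00466 and 0.0036). At D25 the organoid with the highest sum, replicate 1, was the highest for Nfia, Nfib and Nfix, and the organoid with the lowest, replicate 2, was the lowest for all 3. At D30 the organoid with the lowest sum, replicate 6, was again the lowest for all 3, with 24.6, 71.1 and 14.8 normalized CPM. At D20 the organoid with the highest sum, replicate 6, was the highest for Nfib and Nfix. Other extremes did not match. At D30 the highest sum was that of replicate 5, whereas replicate 1 was the highest for all 3 genes, at D20 Nfia was the highest in replicate 4, and at D22 the organoid with the lowest sum, replicate 1, was the highest for Nfib. The order of Nfic and Casz1 differed, since D25 replicate 1 was the lowest for Nfic and D30 replicate 6 the highest for Casz1, although D25 replicate 2 was the lowest for Casz1 as well.

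When the log2 of this summed level was entered as a covariate into the fit of all 24 organoids, 3 of the 9 tested members passed 0.01 for it, against 1.12% of all features. The slopes per doubling of the cortex markers were 0.46 for Nfix (standard error 0.04, adjusted p = 1.97e-09), 0.24 for Nfib (standard error 0.04, adjusted p = 0.000854) and 0.19 for Nfia (standard error 0.04, adjusted p = 0.00339). Those of Nfic, Casz1, Igf2bp1, Igf2bp3, Lin28b and Hmga2 were between -0.06 and 0.01, with adjusted p values of at least 0.688. The covariate was chosen after these values had been seen.

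With the covariate in the fit, the difference between D30 and D20 was 1.74 for Nfix (standard error 0.19, adjusted p = 6.77e-09), 0.89 for Nfic (adjusted p = 0.000192), 0.35 for Nfib (adjusted p = 0.224) and 0.33 for Nfia (adjusted p = 0.177), where 25.2% of all features passed. Without the 10 organoids whose cortex markers summed to over 50 CPM (2 of D20, 4 of D25 and 4 of D30), also chosen after the values had been seen, it was 1.56 for Nfix (adjusted p = 0.00154), 0.97 for Nfic (adjusted p = 0.0115), 0.01 for Nfib (adjusted p = 0.986) and -0.12 for Nfia (adjusted p = 0.802), where 11.6% of features passed and only 2 D25 and 2 D30 organoids were left. Casz1, Igf2bp1 and Igf2bp3 held 1.83, -3.27 and -2.50 in the same organoids, with adjusted p values of 1.66e-06 and below. Glial markers moved with time and with the organoids. Those of Müller glia summed to 1080 to 1340 CPM at D20 and 1560 to 4470 at D30, and those of astrocytes to 0.605 to 26.4 and 118 to 2200, without overlap. Both sums were the lowest of D30 in replicate 6. Most counts of the astrocyte list came from Gfap (105972 over the 24 organoids, against 2450 for Aldh1l1, 826 for Agt and 54 for Pax2). The paper uses GFAP as a hallmark of reactive gliosis in Müller glia and states that MRO systems lack astrocytes. In the fit with cortex markers as a covariate, Gfap and Aldh1l1 followed them (slopes 0.64 and 0.71, adjusted p = 0.00529 and 0.00772). Agt did not pass (0.30, adjusted p = 0.497). Which cells this sum came from, and whether astrocytes were among them, was not tested. The part of glial cells in the results was not tested.

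**Figure D5:**
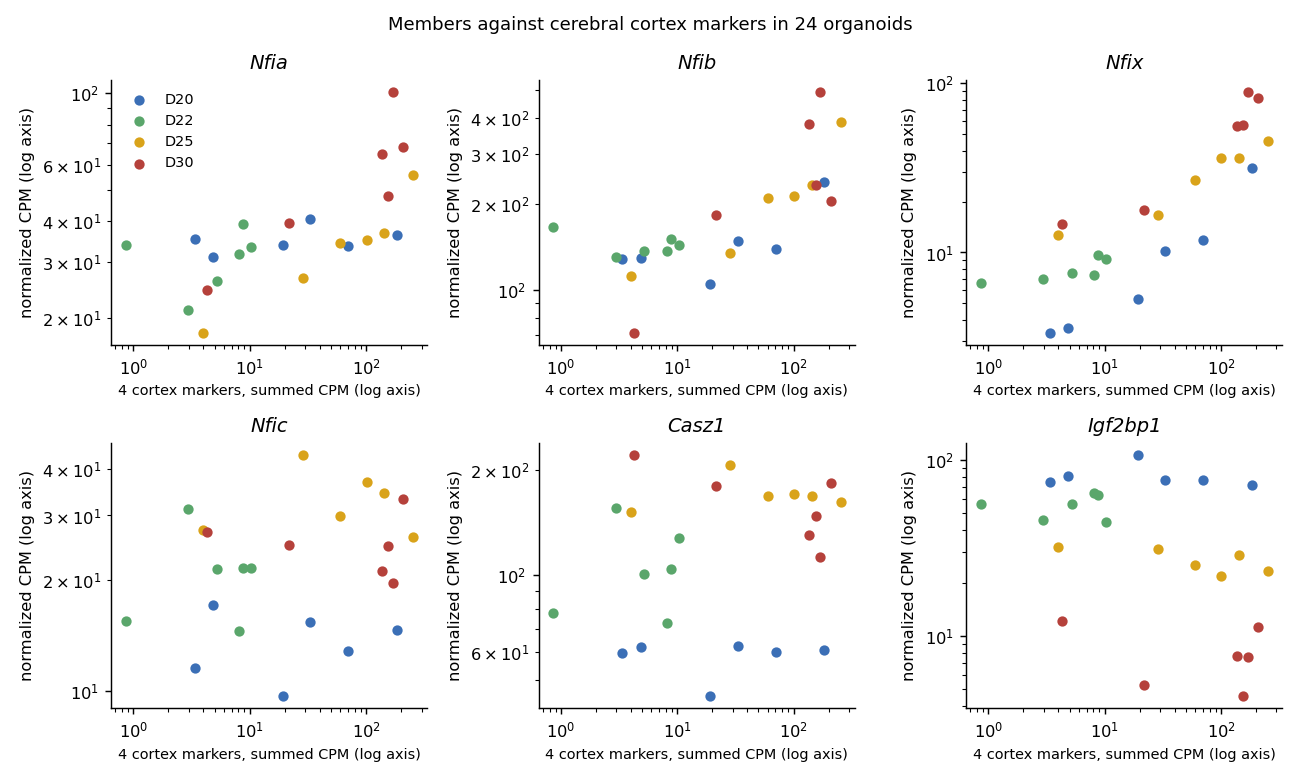
Normalized CPM of Nfia, Nfib, Nfix, Nfic, Casz1 and Igf2bp1 (vertical log axes) against the summed CPM of 4 cerebral cortex markers (horizontal log axes) in the 24 organoids, coloured by timepoint. Nfia, Nfib and Nfix are higher where the markers are higher, with slopes of 0.19, 0.24 and 0.46 in the fit, whereas the slopes of Nfic, Casz1 and Igf2bp1 are between -0.05 and -0.002.

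Other transcription factors of the time course gave counts in both directions. Of 8 factors linked to early competence and early born neurons, 6 fell from D20 to D30 (median log2 fold change -1.48). Among all 16253 annotated genes tested, 2712 fell and 4078 rose past 0.01. Foxn4, which biases progenitors toward horizontal and amacrine cells, went from 28.8 ± 8.55 to 0.487 ± 0.167 normalized CPM (-5.87, adjusted p = 5.5e-14), and Onecut1, a horizontal cell factor, from 21.9 ± 5.36 to 0.741 ± 0.314 (-4.86, adjusted p = 7.82e-13). Pou2f2 fell by 2.12, Sox11 by 1.67 (by 2.81 without the organoids rich in cortex markers), Onecut2 by 1.29 and Sox4 by 1.23, whereas Pou2f1 (0.001) and Foxp1 (-0.20) did not pass. Of 9 factors of late progenitors and glia, 5 fell and 1 rose. Sox9, Rax, Hes1, Hes5 and Zfp36l1 fell, with log2 fold changes of between -3.43 and -0.67, and Zbtb20 rose by 1.38 (adjusted p = 1.79e-06), from 162 ± 25.3 to 423 ± 180 normalized CPM. Sox2, Lhx2 and Sox8 did not pass (0.08, -0.52 and -0.37). Lhx2 followed the cortex markers (slope 0.15, adjusted p = 0.00694) and was at -1.20 without the organoids rich in them. Zbtb20 also followed the cortex markers (slope 0.16, adjusted p = 0.00363), and its difference was 1.07 with them in the fit and 0.61 without the organoids rich in them (adjusted p = 0.0155).

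For each tested member, the annotated genes with the most similar course were found from the root mean square difference of log2 CPM over the 24 organoids, after centring each gene, among 11573 genes with a mean of at least 5 CPM. The closest pairs were those of Casz1, with Mir124a-1hg, a host transcript of the neuronal microRNA miR-124, and Ppef2, a photoreceptor phosphatase, at differences of 0.14 and 0.15. Mir124a-1hg went from 297 ± 31.3 normalized CPM at D20 to 819 ± 171 at D30, and Ppef2 from 28.2 ± 5.76 to 72.4 ± 14.4. For Nfic they were Agpat3 and Cerk, enzymes of lipid metabolism, at 0.20 each, and for Nfia the RNA-binding protein gene Qk and Efr3b at 0.22 each. Nfib was closest to Jakmip2 and Mir99ahg (0.27 and 0.28), and Nfix to Cttnbp2 and Tnfrsf19 (0.39 and 0.45). Igf2bp3 was closest to Scube3 and Tbx3 (0.25 and 0.26), and Igf2bp1 to the progenitor transcription factor Myb and to Nuak2 (0.29 each), with Myb at 155 ± 24.7 normalized CPM at D20 and 13.1 ± 3.61 at D30. The matches of the sparsely counted genes were looser, with Pctp and the eye field factor Six6 for Hmga2 (0.50 each) and Tshr for Lin28b (0.66).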

How the data were processed

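RNA of 24 individual MROs was sequenced from strand-specific libraries depleted of ribosomal RNA and size selected at 200 to 600 bp. Per the labels' processing notes, the authors used cutadapt 1.5, HISAT2, StringTie 1.3.3 and HTSeq 0.6.1, on GRCm38, and deposited raw counts per feature, without normalization, for 46603 annotated genes and 79999 assembled loci. The strand setting is not given in the sources used here. Summary lines of the counting, which name no gene, were left out.

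Members were matched by symbol through GENCODE M21 (GRCm38), and 46005 identifiers had a symbol. The filter kept 46949 features whose mean over organoids reached 10 normalized counts. They were tested with TMM scaling and the quasi-likelihood test of edgeR 4.0.16 in R 4.3.3, in 1 fit of 24 organoids, with Benjamini-Hochberg adjustment over all features and a threshold of 0.01. The study's methods used DESeq2 for this step, and DESeq2 1.42.0 was an alternative. Standard errors were derived from the test statistic. RPKM used the union of annotated exons. The common biological coefficient of variation was 0.385. No 2 libraries of a timepoint agreed within sampling noise (lowest chi-square statistic divided by its degrees of freedom 6.00, 60 pairs). Reads carry no molecular identifiers, so limits from counts cover counting error only. Scripts were tested on simulated counts. The exact permutation tests used scipy 1.17.1 in Python 3.11.15, on log2 ratios with 0.5 counts added.

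The members and gene lists were chosen with earlier results of these data known. Named genes are the 10 members, the 2 genes most similar to each tested member, and list genes that passed 0.01 from D20 to D30, with examples of those that did not. A few genes of the lists and of the similarity rule are not reported here. The cortex and progenitor lists were shortened to 4 and 7 genes after their results had been seen. The let-7 hosts Mirlet7bhg and Mir100hg matched no identifier. From D20 to D30, 4078 of the 16253 annotated genes tested were higher and 2712 lower past 0.01. The cell type lists gave, from D20 to D30, 6 higher and 1 lower of 9 Müller glia markers, 6 higher of 6 rod, 2 higher and 1 lower of 3 cone, 5 higher of 6 bipolar, 1 higher of 6 amacrine, 5 lower of 5 ganglion, 1 higher and 1 lower of 3 horizontal, 3 higher and 1 lower of 5 oligodendrocyte, 3 higher of 3 astrocyte, 1 higher and 1 lower of 4 pigment cell, 3 higher and 1 lower of 6 mesenchymal and vascular markers, 1 lower of 1 pluripotency marker, and none of 4 cortex markers past 0.01, and no microglia or blood marker was tested. Alternatives were DESeq2, its size factors in edgeR, no filter, the replicate number as a block, filterByExpr, the compared timepoints only, annotated genes without assembled loci, the omission of each organoid, and, chosen after seeing the data, the cortex markers as a covariate and the omission of 10 organoids rich in them, whose limit was set so that the same organoids stayed out when the list was shortened.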

Additional observations from a re-analysis of the deposited data

Results flagged for a closer look

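In 6 of 36 groups of 6 organoids, over 9 members and 4 timepoints, the highest or lowest organoid stood farther from the nearest of the others than Dixon's test allows at the 95% level, and chance alone marks about 1 group in 20. Igf2bp1 was at 106.5 normalized CPM in D20 replicate 1, where the next organoid had 81.2. Igf2bp3 was at 10.18 in D30 replicate 4, against 6.18 in the next. Casz1 was at 44.96 in D20 replicate 1, below 59.6 in the next, and at 206.0 in D25 replicate 5, above 170.9. Nfib was at 239.3 and Nfix at 31.56 in D20 replicate 6, where the next organoids had 148.6 and 11.9, and this organoid also had the highest sum of cortex markers at D20 (183 CPM).

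The change over the 5 days before D25 differed from that over the 5 days after it for Casz1, by -1.63 in log2 units (adjusted p = 0.000176), and for Nfic, by -1.69 (adjusted p = 0.00043), in edgeR's quasi-likelihood test.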

How the results depend on the processing

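The counts of calls among the 9 tested members and the NFI ratios stayed within 1.5 times of those reported in 63 of 72 alternative values other than single omissions. The number of members was 2 from D20 to D22 with the replicate number as a block (Casz1 and Nfic) and in the fit of the compared timepoints only (Igf2bp1 and Casz1), 3 from D22 to D30 with annotated genes only, and 2 from D22 to D25 with cortex markers as a covariate (Igf2bp1 and Casz1). Without the organoids rich in cortex markers, which like the covariate was chosen after seeing the data, it was 0 from D22 to D25, 3 from D22 to D30, 4 from D20 to D30 and 0 for the change of pace, with fewer organoids tested. Under the replicate block 0 of the 6 NFI ratios passed (Nfia to Nfix, adjusted exact p = 0.281; Nfib to Nfix, 0.188, with differences as before). With 6 pairs the smallest exact p is 0.03125, or 0.188 after adjustment for a ratio that reaches it alone, so this loss says nothing about stability. Leaving out single organoids gave 1 to 2 members from D20 to D22, 1 to 5 from D22 to D25, and 0 to 2 NFI ratios. The replicate numbers were not taken to pair organoids, since deviations of same-numbered organoids correlated by 0.013 on average and 1 of 36 pairs exceeded 0.1, although 8 of 24 organoids correlated best with their own number, against 4 expected where numbers carry nothing. The block moved the fall of Igf2bp3 and the rise of Nfix from D22 to D25 over the threshold (adjusted p = 0.0102 and 0.013) and brought Nfic under it in that step (0.00319) and the one before (0.00847).

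Among the members and ratios, directions turned under these alternatives only where the reported change had missed 0.01. From D20 to D22, Nfia was 0.17 with cortex markers as a covariate, Nfib 0.015 with annotated genes only, 0.50 with the covariate and 0.17 without the organoids rich in cortex markers, and Nfix 0.86 and 0.48 in the last 2 settings. From D22 to D25 these settings gave Nfia -0.51 and -0.475 and Nfib -0.33 and -0.24. Without those organoids Lin28b was 1.14 and Casz1 0.20 from D25 to D30, and Nfia -0.12 from D20 to D30. Single omissions turned Nfib (-0.12 to 0.15) and Nfix (-0.67 to 0.20, without D20 replicate 6) from D20 to D22, Nfia from D22 to D25 (-0.032 to 0.289), Casz1 from D25 to D30 (-0.181 to 0.025), and the ratios of Nfia to Nfib (-0.182 to 0.051) and Nfib to Nfic (-0.565 to 0.085). The cause was not tested. Scaling with annotated genes only moved the median log2 fold change of annotated genes from D22 to D30 from 0.14 to -0.004. Hmga2 had 5 to 20 counts per organoid at D30, and the part of depth in its call was not tested. Of the list genes named as changed, Ago2, Ccnd2, Thbs1, Hes1, Pcna and Zbtb20 missed 0.01 without the organoids rich in cortex markers.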
